A study of Mus musculus with 6 samples.

Results

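The genes described here act in neural patterning or in neurons and are on mouse chromosome 16: Hes1, Olig1, Olig2, Sim2, Etv5, Zbtb20 and Sst. They were taken by name from the table of 15734 gene rows, and 7 of 7 had a row. They were selected on their row levels, which suited the gene names on chromosome 16 (570 rows), whereas elsewhere in the table many names carry a level that the gene should not have. The row levels were therefore known when the genes were chosen, as were earlier results of these data, in particular for Sst, Hes1 and Olig2. For Sst this included its difference between the genotypes. All these values are given as a description.

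Polyadenylated RNA was sequenced from the heads of mouse embryos at embryonic day 9.5, cut above the pharyngeal arches and otic vesicles. The 3 wild-type embryos were homozygous for the normal Baf155 allele, and the 3 mutant embryos carried the msp3 allele on both copies. Baf155, or Smarcc1, encodes a scaffold subunit of BAF, a complex that remodels chromatin, and the mutants have neural tube defects. All 6 embryos were of a mixed C57BL/6J and 129/SvImJ background, and the labels give neither sex nor litter. Embryos were matched by stage, which is 19 to 21 somites in the labels of the samples but 21 to 23 in the text on the design, and the stage of single embryos is in neither. The comparison asks how gene expression in the mutant head differs from wild type once the normal neural tube has closed. Values are normalized read counts, which are reads per row divided by a factor for each library. The reads in rows numbered between 46170743 and 82067578 per library. The first principal component over all rows tested held 36.0% of the variance. On it wild types 1, 2 and 3 scored -20.3, -12.3 and -15.0, and mutants 1, 2 and 3 scored 3.38, 44.1 and 0.218. The wild types were thus all negative and the mutants all positive, with mutant 2 far from the other mutants. Values without mutant 2 are therefore given where they change a result. The row named Smarcc1, on chromosome 9 where names are less reliable, ran from 42915 to 62563 in the wild types and from 35022 to 52563 in the mutants. Tissue identity could be checked only with chromosome 16 markers. Among them the growth-cone gene Gap43 averaged 5546 ± 409 in the wild types and 6826 ± 309.5 in the mutants (SD, n = 3 each). The pharyngeal factor Tbx1 averaged 2570 ± 466 and 1772 ± 285 (SD, n = 3 each), although the cut was above the pharyngeal arches.

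In the early neural tube, Notch signalling between neighbouring progenitors switches on the repressor Hes1, which holds cells in a dividing state. Sonic hedgehog from the floor plate sets up ventral domains, and Olig2 marks the domain that gives rise to motor neurons and later oligodendrocytes. Fibroblast growth factor signalling switches on Etv5, and differentiated neurons express neuropeptide genes such as Sst.

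The promoters of 2 genes are shown because these genes carry the main observations. Sst differed most between the genotypes. Olig2 is among 3 genes, with Olig1 and Sim2, that lay below all wild types in mutant 1 and above them in mutants 2 and 3. Both are the 250 bases before the transcription start, 5′ to 3′, from RefSeq on GRCm38.p6, in which 4 of the 7 genes had an entry. The Sst window is chr16:23890845-23891094 on the minus strand, and its capitals mark TGACGTCA, the cyclic AMP response element. The Olig2 window is chr16:91225300-91225549 on the plus strand, and its capitals mark TATAAA, the letters of the TATA box motif.
Sst: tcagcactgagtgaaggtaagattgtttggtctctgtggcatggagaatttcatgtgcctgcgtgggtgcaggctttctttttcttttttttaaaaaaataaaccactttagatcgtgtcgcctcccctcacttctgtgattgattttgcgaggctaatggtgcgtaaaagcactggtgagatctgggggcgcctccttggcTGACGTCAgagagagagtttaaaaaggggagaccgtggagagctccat
Olig2: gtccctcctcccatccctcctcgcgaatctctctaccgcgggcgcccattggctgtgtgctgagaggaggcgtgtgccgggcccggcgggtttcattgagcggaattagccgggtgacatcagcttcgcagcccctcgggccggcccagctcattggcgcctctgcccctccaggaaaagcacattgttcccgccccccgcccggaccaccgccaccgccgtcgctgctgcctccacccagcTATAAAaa

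The response element in the Sst window began at position -48 from the start. On either strand this motif occurred in 1.55% of the 32851 promoter windows of the same length, and it was not found in the Olig2 window. The TATA motif in the Olig2 window began at -8 and occurred in 12.4% of all windows. The E-box CANNTG, a motif bound by many basic helix-loop-helix factors, occurred once in the Sst window, at -199, and in 66.2% of all windows. These matches only describe the letters of each window.

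Hes1 and Etv5, which respond to Notch and to fibroblast growth factor signalling, were the most abundant of the genes per length of exon. In wild type Hes1 had 1975 ± 127 and Etv5 1748 ± 122 normalized reads per kb of exon (SD, n = 3 each). These spreads overlapped, but Hes1 was above Etv5 within each wild-type library. Olig2 followed at 380 ± 44.3 per kb and Sst at 237 ± 174 per kb. Their spreads overlapped too, but Olig2 was above Sst per kb within each wild-type library. Sim2 had 68.5 ± 15.95, Olig1 22.3 ± 5.83 and Zbtb20 3.76 ± 0.475 normalized reads per kb. For Zbtb20 the annotated exons of all transcripts sum to 30730 bases, so its level per kb is a low estimate if few of them are used. In mutants the level per kb was 2098 ± 632 for Hes1, 1706 ± 194 for Etv5 and 1346 ± 407 for Sst (SD, n = 3 each). Below them came Olig2 at 528 ± 217, Sim2 at 76.7 ± 33.2, Olig1 at 34.2 ± 19.2 and Zbtb20 at 4.02 ± 1.15 per kb. The SDs of Sim2 and Olig1 overlapped, but Sim2 was above Olig1 per kb within each mutant library. Sst thus stood below Olig2 on average in wild type and above it in mutants.

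None of the 7 genes passed the test between the genotypes. By limma 0 had an adjusted p below 0.05, beside 0.0225% of the 13329 rows tested, with both directions counted. By edgeR and DESeq2 on whole reads and by limma with array quality weights 0 of the 7 passed as well, beside 0.015%, 1.38% and 0.45% of the rows with an adjusted p (13329, 11256 and 13329). At an unadjusted p below 0.05 there was 1 gene, Sst, beside 10.8% of all rows. The log2 difference, mutant minus wild type, was above 0 for 6 genes and below 0 for 1, with a median of 0.08 beside -0.0047 over all rows tested. With array quality weights the sign of Hes1, Olig1, Olig2, Sim2 and Zbtb20 turned to negative, so no direction is read for them. In this bulk tissue fewer cells of a type and less RNA per cell cannot be told apart.

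**Figure D1:**
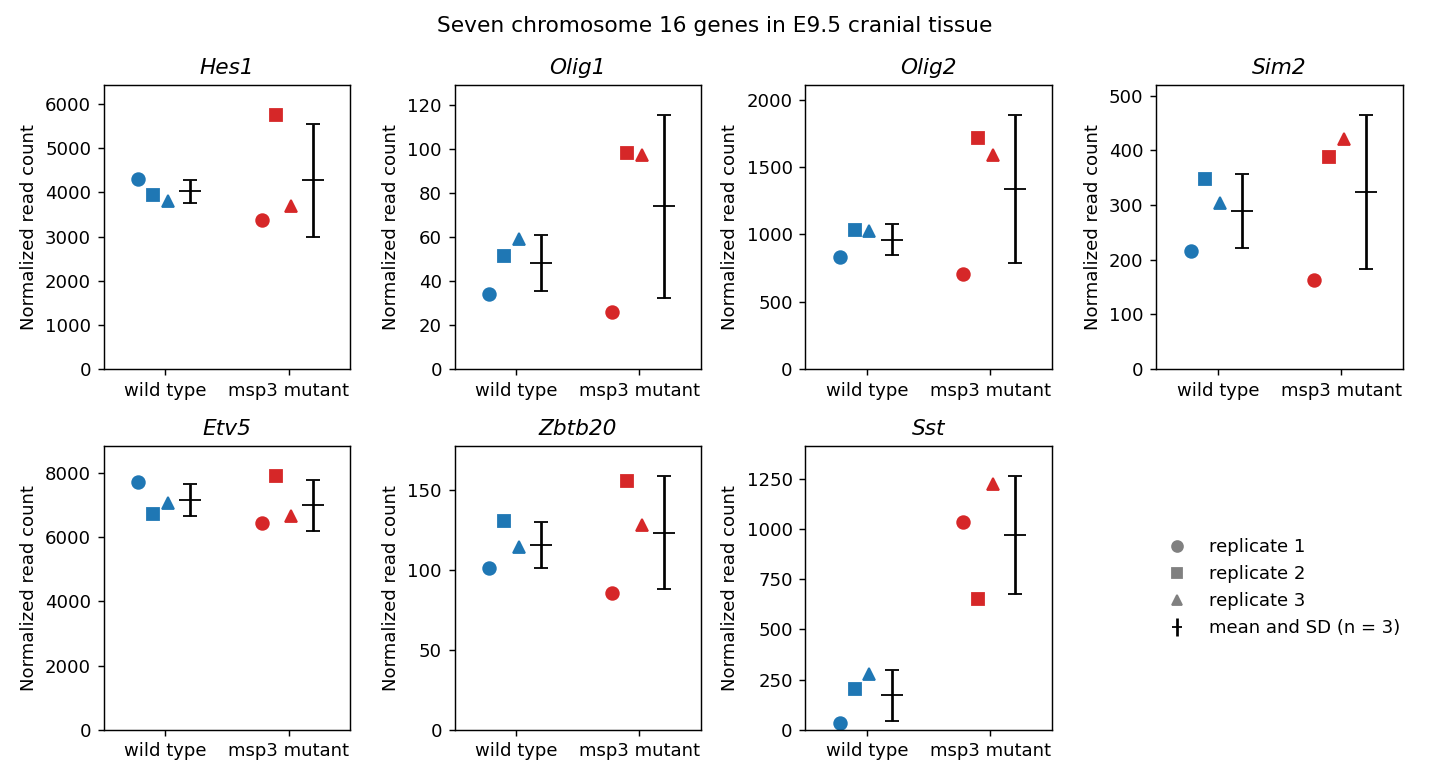
Normalized read count of each gene (vertical axes, from 0) in 3 wild-type (blue) and 3 msp3 mutant libraries (red), with the mean and SD of each genotype in black. All mutant values of Sst lie above all wild-type values, and mutant 1 is the lowest library for the other 6 genes.

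Sst, which encodes the neuropeptide somatostatin, an inhibitor of hormone and transmitter release, was higher in every mutant than in every wild-type embryo. Its normalized read count was 32.9, 201 and 278 in wild types 1, 2 and 3, and 1034, 651 and 1227 in mutants 1, 2 and 3. The genotypes did not overlap, and the lowest mutant stood 2.34-fold above the highest wild type. All mutants lay above all wild types in 8.69% of all rows tested. The mean was 171 ± 125 in the wild types and 971 ± 294 in the mutants (SD, n = 3 each), which is 5.69-fold.

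The log2 difference of Sst was 2.92 ± 0.68 (SE), and it did not pass over all rows (limma, adjusted p = 0.331). It was the highest of the 524 rows of chromosome 16 that were tested. Over all rows tested 2 of 13329, Sst among them, had a log2 difference of that size or more. By unadjusted p it was less extreme: 91 rows of the table had a smaller p. The wild-type embryos themselves differed 8.43-fold in Sst, and 0.0900% of the rows tested varied as much or more among the wild types on the log2 scale. Wild type 1 rested on 24 reads, with an exact Poisson 95% interval of 21.1 to 49.0 normalized reads, which covers counting error only and lies below that of wild type 2, at 175 to 231. Without wild type 1 the log2 difference was 1.98, and without wild type 3 it was 3.50. Neither passed (limma, adjusted p = 0.267 and 0.52).

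Some markers of other cell types on chromosome 16 did not overlap between the genotypes, and others did. Summed endothelial markers, Cldn5 and Erg, ran from 2190 to 2557 in wild type and from 1278 to 1865 in mutants, without overlap, and Cldn5 alone, whose name is on firmer ground than that of Erg, ran from 2070 to 2417 and from 1209 to 1719. The pharyngeal transcription factor Tbx1 ran from 2049 to 2945 and from 1507 to 2074, with overlap. Runx1, a blood progenitor marker, overlapped too, from 214 to 278 in wild type and from 227 to 388 in mutants. Summed neuron markers, of which Gap43 gives most reads, ran from 5843 to 6565 in wild type and from 7110 to 7860 in mutants, without overlap. Among single rows tested, all mutants lay below all wild types in 10.4% and above them in 8.69%. Of the 4 neuron markers, 2 had a log2 difference above 0 and 2 below, and no marker of any list was at 0. No marker passed the test, which 0.0225% of all rows tested passed, and their part in the Sst values was not tested.

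The nearest rows beside Sst on the chromosome did not share its values. Rtp4, a chaperone of receptor transport, averaged 20.6 ± 2.23 in the wild types and 18.3 ± 8.46 in the mutants (SD, n = 3 each), and Bcl6, a transcriptional repressor, had 125 ± 11.2 and 127 ± 19.8. By root mean square difference between centred log2 values over the 6 libraries, the row most like Sst among 437 compared on chromosome 16 was Epha3, an ephrin receptor, at 1.02. Sst deviated from its own mean by 1.76 on the same scale, so this likeness is loose. Epha3 had 325, 571 and 804 in wild types 1, 2 and 3, and 1071, 1064 and 1911 in mutants 1, 2 and 3. Wild type 1 was the lowest and mutant 3 the highest library for both genes. The second was the transcript 2810055G20Rik, at 1.38.

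Olig2 and Olig1, neighbouring genes that encode basic helix-loop-helix factors of the ventral neural tube, varied more among the mutants than between the genotypes. Olig2 had 832, 1030 and 1021 normalized reads in wild types 1, 2 and 3, and 706, 1713 and 1586 in mutants 1, 2 and 3. Mutant 1 lay below every wild type, and mutants 2 and 3 lay above every wild type. The means were 961 ± 112 and 1335 ± 548 (SD, n = 3 each). The log2 difference was 0.38 ± 0.30 (SE), which did not pass (limma, adjusted p = 0.628). Mutant 2 had 2.43-fold and mutant 3 2.25-fold the Olig2 level of mutant 1. Exact Poisson 95% intervals were 657 to 758 for mutant 1, 1632 to 1796 for mutant 2 and 1520 to 1654 for mutant 3, so the gap exceeded counting error.

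Olig1, which acts with Olig2 in oligodendrocyte formation, had the same placing of mutants against wild types at a much lower level. It had 34.3, 51.3 and 58.9 in wild types 1, 2 and 3, and 26.1, 98.3 and 97.4 in mutants 1, 2 and 3. Again mutant 1 was below and mutants 2 and 3 above all wild types. The log2 difference was 0.42 ± 0.49 (SE), not passing (limma, adjusted p = 0.743). Without mutant 1 it was 1.04 for Olig1 and 0.78 for Olig2, and neither passed (limma, adjusted p = 0.333 and 0.169). It was 0.10 and 0.15 without mutant 2, and 0.11 and 0.20 without mutant 3, and for Olig1 it was 0.20 without wild type 1. Mutant 1 rested on 28 reads, and its interval of 17.3 to 37.7 overlapped that of wild type 1, at 22.2 to 50.6. Exons of Olig1 overlap those of the long noncoding RNA Gm15966 on the opposite strand, and since the use of strand is not given in the sources used here, their reads cannot be told apart.

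The rows around the pair did not place the mutants in this way. Ifnar2, an interferon receptor gene on the far side of Olig1, had 1827, 1822 and 1868 in wild types 1, 2 and 3, and 2035, 1832 and 1809 in mutants 1, 2 and 3, so that mutant 1 was its highest library. On the other side of Olig2, 4932438H23Rik had 31.6, 38.7 and 23.1 in wild types 1, 2 and 3, and 31.7, 16.2 and 39.1 in mutants 1, 2 and 3, with mutant 2 the lowest library.

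Sim2, a basic helix-loop-helix factor whose fly counterpart single-minded controls the midline of the nerve cord, had 215, 348 and 304 normalized reads in wild types 1, 2 and 3. In mutant 1, 2 and 3 it had 163, 388 and 421. It was the third gene with mutant 1 below and mutants 2 and 3 above all wild types. The log2 difference was 0.08 ± 0.35 (SE), not passing (limma, adjusted p = 0.939). It was 0.51 without mutant 1, and it turned to -0.11 without mutant 2, -0.17 without mutant 3 and -0.12 without wild type 1. The interval of 140 to 189 for mutant 1 lay below those of mutant 2, at 350 to 429, and mutant 3, at 387 to 457.

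This arrangement, noticed after the values were seen, was found in 169 of the 13329 rows tested (1.27%) and in 11 of the 524 on chromosome 16 (2.10%). Over the 6 libraries Sim2 was the row of chromosome 16 most like Olig2, with a root mean square difference of 0.20 on the centred log2 scale. Zbtb20 came second at 0.24. Olig2 deviated from its own mean by 0.46 on that scale, so these likenesses are partial. The median difference over 437 rows, also 0.46, only matches that deviation. For Olig1 the nearest rows were Olig2 at 0.26 and Sim2 at 0.28, and for Sim2 they were Olig2 at 0.20 and Zbtb20 at 0.25. Olig1 and Sim2 deviated from their own means by 0.70 and 0.48. The standard deviation of log2 values among the mutants was 1.08 for Olig1, 0.71 for Olig2 and 0.76 for Sim2, and 1.27%, 4.94% and 4.19% of all rows tested had one at least as high. Among the wild types it was 0.40, 0.17 and 0.35. Wild type 1 was the lowest wild type for each of these genes. Surface epithelium markers, Trp63 and Cldn1, summed to 2549 in mutant 1, their highest value, while in wild type they ran from 1428 to 1903. Most of that sum was Trp63, at 1891, beside 907 to 1364 in wild type. Cldn1 had 658 in mutant 1, near its 633 in mutant 3 and 604 in wild type 1. The neural crest marker Snai2 ran from 901 to 1084 in wild type and from 968 to 1142 in mutants. The part of these cell types in the spread of the Olig genes and Sim2 was not tested.

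**Figure D2:**
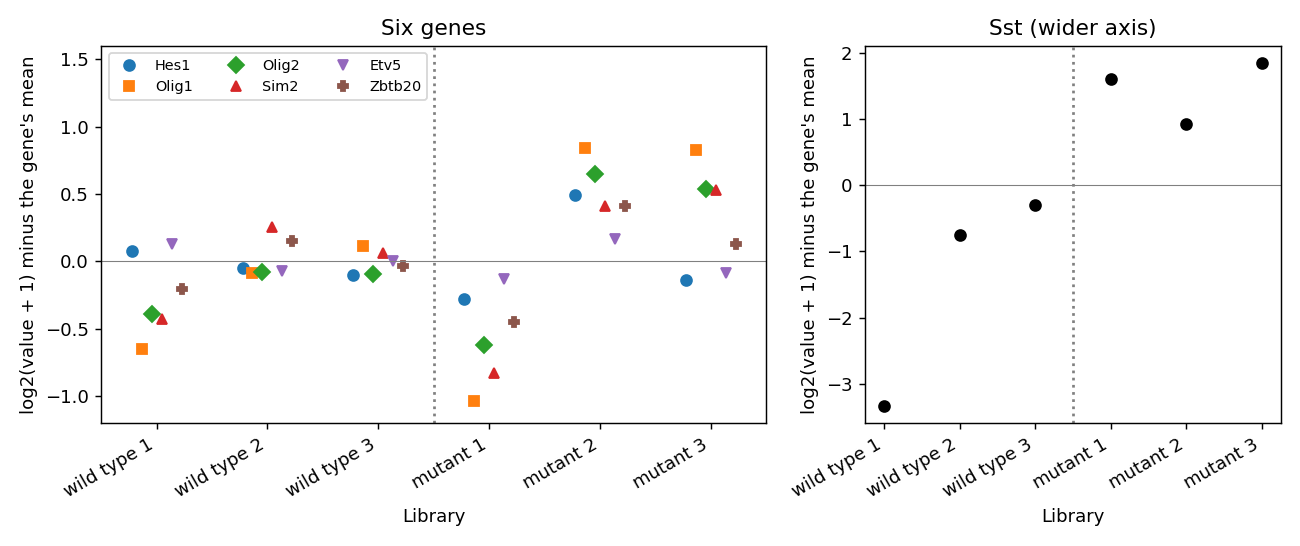
Deviation of log2(value + 1) from each gene's own mean in each of the 6 libraries, for 6 genes (left) and for Sst on a wider axis (right). All 6 genes on the left are lowest in mutant 1, and Olig1, Olig2 and Sim2 also stand above all wild types in mutants 2 and 3, whereas Sst is lowest in wild type 1 and high in all 3 mutants.

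The name of the Sim2 row rests on weaker ground than the others, because it is at the end of the stretch where names fitted levels. Up to and with Sim2 chromosome 16 has 548 rows, and past it 22. Just before it, Chaf1b, a histone chaperone subunit of dividing cells, had a mean of 11071 ± 732 (SD, n = 6), and Cldn14, a claudin of the inner ear and kidney, had 26.6 ± 6.78. Past it, the row named Kcnj6, a potassium channel of mature neurons, had 14516 ± 487 (SD, n = 6). The row named Brwd1, a widely expressed chromatin reader, had only 14.8 ± 3.19, and Wrb, a receptor for tail-anchored membrane proteins, had 11.6 ± 3.73. Values of the rows past Sim2 therefore need not be those of the genes named, Erg and Dscam among them. Pigp, the next row, had 281 ± 21.3 (SD, n = 6), with 295 ± 13.8 in mutants (SD, n = 3), and did not share the spread of Sim2 among mutants.

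**Figure D3:**
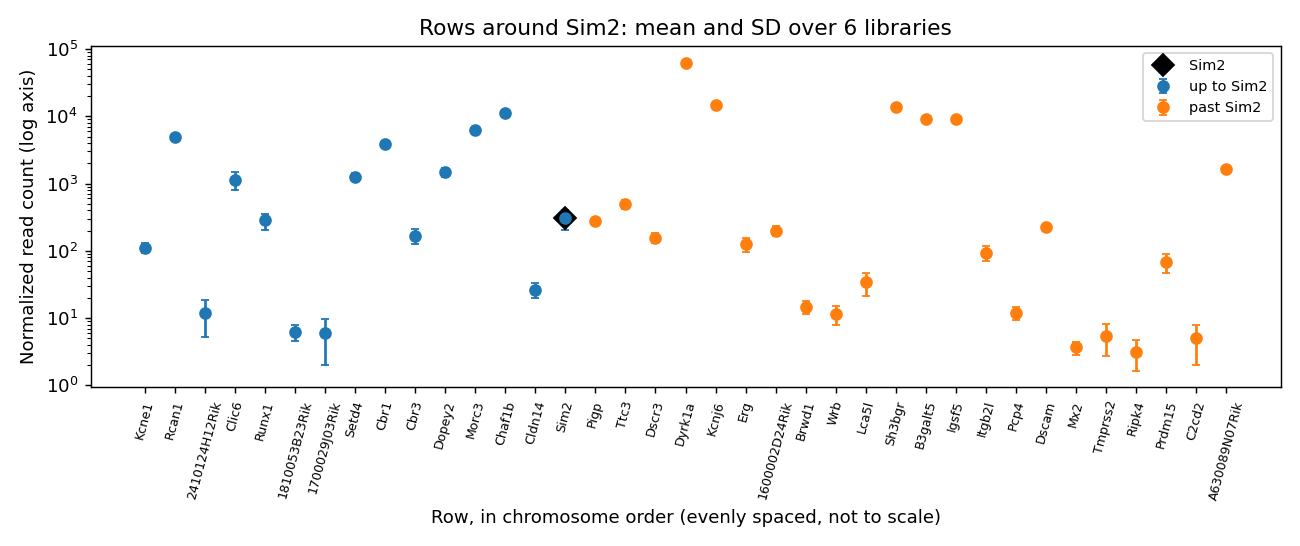
Mean normalized read count and SD over 6 libraries (log axis) of the rows around Sim2 in chromosome order. Past Sim2 the rows named Kcnj6, Sh3bgr, B3galt5 and Igsf5 stand at 8983 or more, and Brwd1 and Wrb below 15.

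Zbtb20, a zinc finger repressor that shapes the hippocampus later in development, was low and did not differ between the genotypes beyond its spread. It had 102, 131 and 115 normalized reads in wild types 1, 2 and 3, and 85.7, 156 and 128 in mutants 1, 2 and 3. Mutant 1 was again the lowest library and mutant 2 the highest, while mutant 3 lay within the wild types. The log2 difference was 0.06 ± 0.24 (SE), not passing (limma, adjusted p = 0.932). It was 0.30 without mutant 1, -0.13 without mutant 2 and -0.03 without wild type 1. The interval of mutant 1, at 69.1 to 105, did not reach that of mutant 2, at 132 to 183. The row most like Zbtb20 was Bdh1, a ketone body dehydrogenase, at a root mean square difference of 0.09. Zbtb20 deviated from its own mean by 0.27 on the same scale. Bdh1 averaged 625 ± 91.0 in the wild types and 635 ± 169 in the mutants (SD, n = 3 each). Exons of Zbtb20 overlap those of the microRNA Mir568, whose own row had a mean of 3.01 ± 1.38 (SD, n = 6), and of the antisense transcript Gm9968.

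Hes1, the Notch target, stood higher in mutant 2 alone. It had 4313, 3944 and 3814 normalized reads in wild types 1, 2 and 3, and 3369, 5748 and 3703 in mutants 1, 2 and 3. Mutants 1 and 3 lay below all wild types, mutant 1 lowest, and mutant 2 lay above them at 1.43-fold the wild-type mean. The log2 difference was 0.05 ± 0.18 (SE), not passing (limma, adjusted p = 0.924), and without mutant 2 it was -0.19 (adjusted p = 0.413). The coefficient of variation was 6.44% in wild type and 30.1% in mutants. Lsamp, an adhesion protein of limbic neurons, was the row most like Hes1, at a root mean square difference of 0.07, with 737 in mutant 2 and between 496 and 575 in the other libraries. Parl, a mitochondrial protease, came second at 0.10, where Hes1 deviated from its own mean by 0.24. Hes1 differed from Olig2 in mutant 3, where Hes1 was below and Olig2 above all wild types.

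Etv5, an ETS factor induced by fibroblast growth factor signalling, varied least of the 7 genes among the mutants. It had 7715, 6723 and 7082 normalized reads in wild types 1, 2 and 3, and 6436, 7911 and 6654 in mutants 1, 2 and 3, so that the genotypes overlapped and mutant 1 was the lowest library. The log2 difference was -0.04 ± 0.093 (SE), not passing (limma, adjusted p = 0.881), and the coefficient of variation was 7.01% in wild type and 11.4% in mutants. Its adjoining row Tra2b, a splicing factor, had 32119 ± 1574 and 32997 ± 4908, and Dgkg, a diacylglycerol kinase on the other side, had 99.1 ± 5.82 and 113 ± 26.6 (SD, n = 3 each). The rows most like Etv5 were Rwdd2b at 0.032 and 4930453N24Rik at 0.034, where Etv5 deviated from its own mean by only 0.11.

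**Figure D4:**
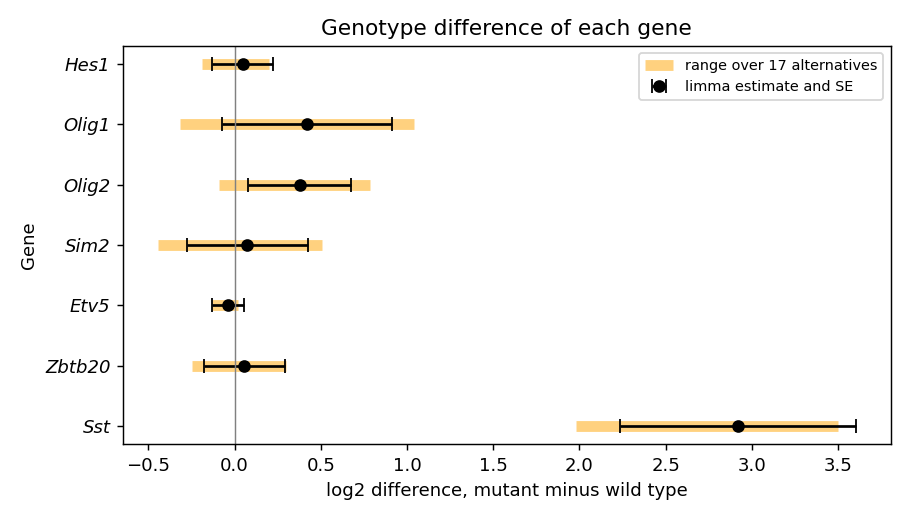
Log2 difference, mutant minus wild type, of each gene with its standard error (black) and its range over 17 alternative settings (orange). Only the range of Sst, from 1.98 to 3.50, and none of the others, stays on one side of 0.

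Other chromosome 16 genes of the pathways that act on these genes did not pass either, but only 0.0225% of all rows tested did. With so few calls over the whole table, 0 calls in a short list say little about these pathways. Of the signalling list, 6 of 7 genes had a row and 0 passed in either direction (2 with a log2 difference above 0 and 4 below, median -0.06). Among them the signalling adaptor Crkl averaged 12814 ± 96.3 in the wild types and 11627 ± 924 in the mutants (SD, n = 3 each). All mutants lay below all wild types for Crkl, as in 10.4% of all rows tested. The Wnt pathway genes Gsk3b and Dvl3 had log2 differences of -0.08 and -0.05. Boc, a co-receptor for Sonic hedgehog named here for its role, had 6166, 7156 and 7318 in wild types 1, 2 and 3, and 8716, 6946 and 7689 in mutants 1, 2 and 3. Mutant 1, where Olig2 was lowest, had the highest Boc value.

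Of 22 neuron and axon genes on chromosome 16, 0 passed in either direction, beside 0.0225% of all rows tested. Of the 22, 13 lay above 0 and 9 below (median 0.07, limma smallest adjusted p = 0.331). All mutants lay above all wild types for 5 of them and below for 2, beside 8.69% and 10.4% of all rows tested. The row named Dscam, which is past Sim2, was among those 5. The most abundant were App, the amyloid precursor protein, with a log2 difference of -0.22, Robo1, a receptor for the guidance cue Slit, with -0.14, and Tiam1, an activator of Rac, with -0.08. The row named Kcnj6 was also among the 4 highest but is past Sim2. Without the 3 rows past Sim2 there were 11 above 0 and 8 below.

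Of 10 other transcription factors on chromosome 16, 0 passed, beside 0.0225% of all rows tested. Of the 10, 7 lay above 0 and 3 below (median 0.04, limma smallest adjusted p = 0.396). Bach1, a repressor of heme-response genes, had a log2 difference of -0.10, Glis2 0.02 and Tfap4 0.05. Tbx1, a factor of the pharyngeal region, had the value nearest to passing among them, -0.53. Lists for the Notch pathway, for hedgehog signalling and the ventral neural tube, for fibroblast growth factor targets and receptors, and for somatostatin receptors have most of their genes on other chromosomes, where a row often lacks the level its name calls for. Of their 14, 7, 7 and 1 rows tested 0 passed, which says little about the genes named, and 0.0225% of all rows tested did.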

How the data were processed

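The authors deposited RNA-seq as a normalized signal for each gene row in each library. CASAVA 1.7, bedtools and mm9 are named in the submitters' processing notes, without roles, and the counting rule, strand and annotation are not given in the sources that were used. Within a library all values were whole multiples of 1 step, which gave back whole reads for 100% of them to 0.001 reads. A further 17 columns were not used. Names were matched to RefSeq genes on GRCm38 for 15627 of 15734 rows, for chromosome and order only; exon lengths come from GENCODE M21. Zeros fill whole genotypes in 96 rows (wild type) and 13 rows (mutant), none of them described here.

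The main test was limma 3.58.1 (R 4.3.3) with a mean-variance trend on log2(value + 1), two-sided, for rows with a mean of at least 10, with Benjamini-Hochberg adjustment over all rows. This scale understates changes of low rows. edgeR 4.0.16, which called 2 rows, and DESeq2 1.42.0, which called 155, were run on the recovered reads as alternatives. The limma step was tested on simulated data with the same variation beyond counting error in all rows and both genotypes. That test does not cover rows as variable as Sst among the wild types or Olig1 among the mutants. Labels describe separate embryos. Intervals are exact Poisson and cover counting error only. The members, lists and tests were chosen with earlier results of these data known. All 7 genes are named, with their 2 most similar rows of chromosome 16 with a mean of at least 100, their neighbouring rows, and up to 4 rows of highest mean per chromosome 16 list; 1 row that this rule names is not reported here. Boc, Gap43 and the rows around Sim2 are named outside this rule. Python 3.11.15, pandas 2.3.3, numpy 2.4.6, scipy 1.17.1 and matplotlib 3.10.9 were used.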

Additional observations from a re-analysis of the deposited data

How the results depend on the processing

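Each of the 7 genes was recomputed under 17 alternatives (119 values), and 0 passed an adjusted p below 0.05; the sign turned in 13 values, and for Sst in none. With array quality weights the log2 difference was -0.13 for Hes1, -0.32 for Olig1, -0.0897 for Olig2, -0.44 for Sim2 and -0.24 for Zbtb20. Without single libraries it ran from -0.19 to 0.20 for Hes1, from 0.10 to 1.04 for Olig1, from 0.15 to 0.78 for Olig2, from -0.17 to 0.51 for Sim2, from -0.13 to 0.019 for Etv5, from -0.13 to 0.30 for Zbtb20 and from 1.98 to 3.50 for Sst. For Hes1 the sign turned without mutant 2 (-0.19), for Sim2 without wild type 1 (-0.12), mutant 2 (-0.11) or mutant 3 (-0.17), for Etv5 without wild type 1 (0.015) or mutant 1 (0.019), and for Zbtb20 without wild type 1 (-0.03) or mutant 2 (-0.13). The cause was not tested, and no direction is read for these genes, Olig1 or Olig2.

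The number of rows called, 3 with limma, was 5 with quantile normalization, 5 with equal medians, 0 without trend, 60 with array quality weights and 155 with DESeq2, and ran from 0 to 14 without single libraries (0 without wild type 2 or 3, 14 without mutant 1 or 2, 6 without mutant 3). The lists gave 0 calls in all 119 recomputed counts. Without mutant 2, a choice made after seeing the data, the log2 difference was above 0 for 13 of 22 neuron and axon genes, 2 of 6 signalling genes and 6 of 10 transcription factors.

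Correlations of same-numbered libraries' deviations were -0.045, -0.00025 and 0.059. These values cannot show whether same-numbered embryos shared a litter or a batch, and the labels do not give the litter. With the replicate block the log2 difference of Olig2 remained 0.38 (limma, adjusted p = 0.505) and that of Sst 2.92 (limma, adjusted p = 0.18). Their standard errors fell from 0.30 to 0.19 and from 0.68 to 0.53, whereas that of Etv5 rose from 0.093 to 0.104. In all 3 rows were called, and the block changed no call of these genes or lists. Depth limits Olig1, Zbtb20 and Sst most, whose lowest libraries held 25, 74 and 24 reads.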
